A study of Mus musculus with 2 samples.

Results

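The collagen gene family was compared between the whole omentum of wild-type (WT) and Postn-DTR mice. Members were the gene symbols made of Col, a number, a and a number, and 44 of the 24346 genes listed in both libraries matched. They comprised 11 fibrillar, 6 basement membrane, 6 beaded-filament and 9 FACIT genes (fibril-associated collagens with interrupted triple helices) and 12 others. The omentum is a fat-rich sheet of the abdominal cavity that holds clusters of immune and stromal cells. RNA-seq of whole omentum was performed to find how Aldh1a2+ fibroblastic reticular cells (FRCs), which use the Postn promoter, bring lymphocytes into this tissue. There was 1 library of each genotype, WT and Postn-DTR, and both groups received diphtheria toxin (DT) and were analysed 5 days later. Postn-DTR mice carry the diphtheria toxin receptor in the first coding exon of Postn, so that cells using this promoter die after DT, and the mice studied were heterozygous (Postn Dtr/+) on a C57BL/6 background. Cells outside the omentum also use the Postn promoter, so the depletion is not limited to this tissue. The age and number of mice behind each library, and whether mice were pooled, were not given in the sources used here.

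Collagens are proteins of 3 chains wound into a triple helix, in which glycine recurs at a fixed spacing. Fibrillar chains assemble into the fibrils that carry tension in connective tissue, collagen IV chains form the network of basement membranes, and collagen VI chains form beaded filaments around cells. FACIT chains lie on the surface of fibrils. In fat, collagen VI surrounds adipocytes, and a collagen IV sheet borders each adipocyte, vessel and the mesothelial lining.

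The values were FPKM, fragments scaled to transcript length and library size, so levels of different genes are compared per length. A change is log2(FPKM + 1) of the Postn-DTR library less that of WT, a scale that shrinks differences of low genes. Thresholds such as 2-fold were applied to this change, whereas the fold quoted for a single gene is its FPKM ratio. With 1 library per genotype there was no replicate check and no test, and no p-value is given. In bulk tissue, fewer cells of a type and less RNA per cell cannot be told apart. A mean FPKM of 1 or more was required, which 13127 genes met, 26 collagen genes among them. Estimated depth was similar, with the Postn-DTR library at 1.03 times that of WT. Postn itself had an FPKM of 58.3 and 16.2 (throughout, the WT value comes before that of Postn-DTR). Adipocyte markers summed to 2752 and 2077, with Adipoq at 955.2 and 635.9, and the mesothelial marker Upk3b had 211.6 and 181.9, so markers of the labelled tissue were present. Pancreatic acinar markers stood apart, with a sum of 10332 and 19.7, so the libraries differed in their content of acinar transcripts. How far this difference bears on the collagen values was not tested.

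Collagen transcripts were lower in the Postn-DTR library across most of the family. Summed over the 44 genes, FPKM was 3617 in the WT library against 2292 in the Postn-DTR library, 1.58-fold lower. This was 0.667% and 0.341% of the FPKM of all genes, which itself summed to 542190 and 671882. Of the 26 genes compared, 22 had a change below 0, where 48.1% of all genes compared did. At least 2-fold lower were 5 genes (Col5a3, Col15a1, Col6a6, Col6a3 and Col13a1), against 3.12% of all genes. On the plain FPKM ratio, a setting chosen after seeing the data, Col27a1 (2.04-fold) also passed, which made 6. On that ratio 682 of the 13127 genes compared were lower. None was at least 2-fold higher, where 3.88% of all genes were. At a threshold of 1.5-fold, 13 collagen genes were lower and 0 higher, with 8.84% and 9.86% of all genes in these directions. The median change was -0.57 over the collagen genes and 0.02 over all genes, whose quartiles were -0.24 and 0.28. The libraries were also centred, scaled to the upper quartile or brought to equal totals without the acinar genes. Then 23, 24 and 24 of the 26 genes were below 0 (and 50%, 55.6% and 77% of all genes). Each of these scalings moved changes down, so none could have turned a lower gene higher. They are therefore no check on the direction of the family.

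**Figure D1:**
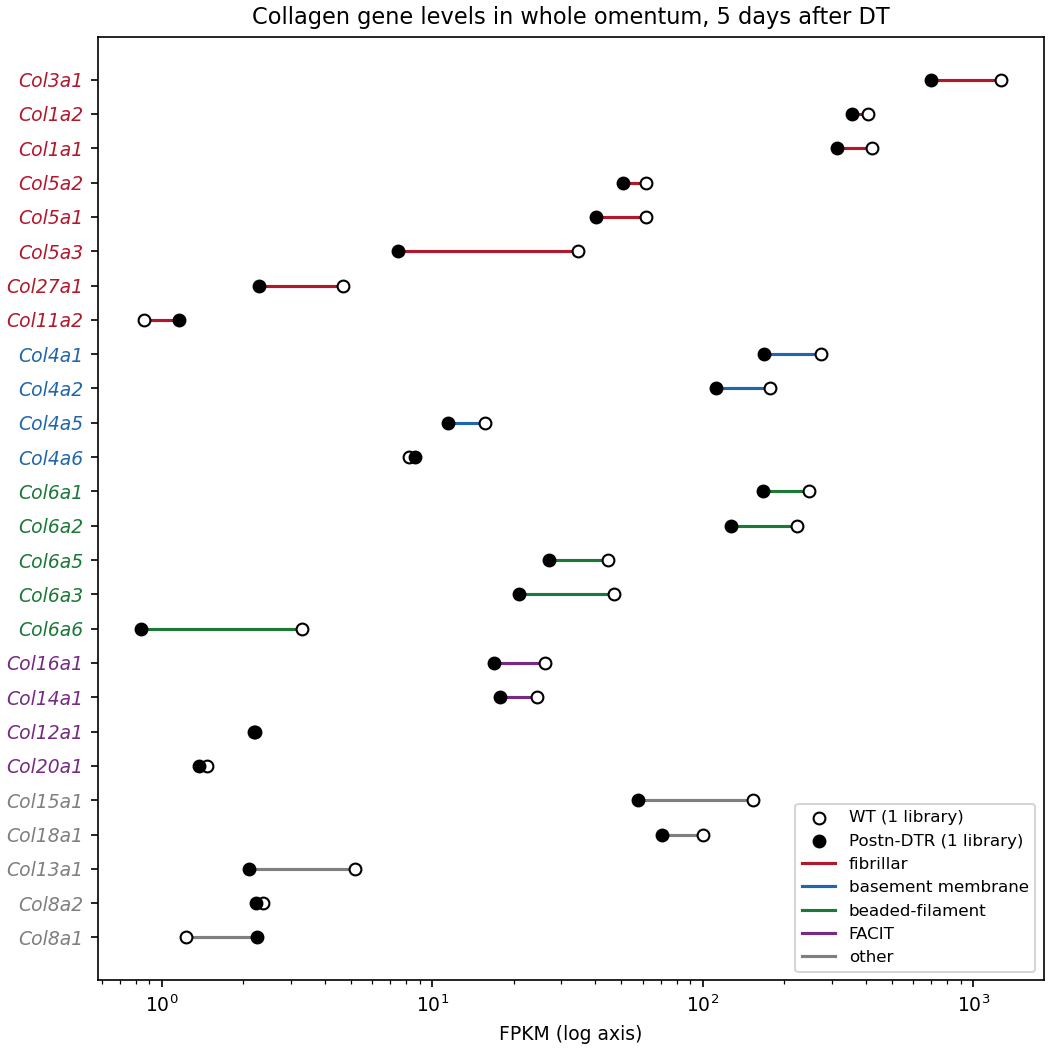
FPKM of the 26 collagen genes compared (log axis), with an open circle for the WT library and a filled circle for the Postn-DTR library, 1 library each, and line colours for the classes. The filled circle lies to the left for 22 genes, and the gap is widest for Col5a3 (34.5 and 7.46).

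The sequences before the starts of 4 members are shown because these members ranged from the most abundant collagen gene (Col3a1) to those with the largest changes (Col5a3 and Col15a1), and because Col5a1 encodes a close relative of Col5a3. Each is the 250 bases upstream of the RefSeq start on GRCm38.p6, written 5′ to 3′ on the strand of the gene. They are Col3a1 (chr1:45311288-45311537, plus strand), Col5a1 (chr2:27886175-27886424, plus strand), Col5a3 (chr9:20815068-20815317, minus strand) and Col15a1 (chr4:47207762-47208011, plus strand), and no base of them lies in an annotated exon. Capitals mark whole matches, on either strand, of the TATA box letters TATAAA, the CCAAT box and the GC box letters GGGCGG, of which no match overlapped another.
Col3a1: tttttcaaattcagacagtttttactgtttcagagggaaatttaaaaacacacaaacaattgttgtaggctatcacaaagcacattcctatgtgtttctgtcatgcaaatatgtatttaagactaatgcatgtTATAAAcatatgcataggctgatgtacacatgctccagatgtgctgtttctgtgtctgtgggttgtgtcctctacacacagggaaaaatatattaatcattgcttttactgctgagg
Col5a1: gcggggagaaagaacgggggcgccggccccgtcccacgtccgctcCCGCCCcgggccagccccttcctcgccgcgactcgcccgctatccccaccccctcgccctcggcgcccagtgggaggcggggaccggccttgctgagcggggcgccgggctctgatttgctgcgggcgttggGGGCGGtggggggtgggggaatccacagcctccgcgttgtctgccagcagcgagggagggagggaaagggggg
Col5a3: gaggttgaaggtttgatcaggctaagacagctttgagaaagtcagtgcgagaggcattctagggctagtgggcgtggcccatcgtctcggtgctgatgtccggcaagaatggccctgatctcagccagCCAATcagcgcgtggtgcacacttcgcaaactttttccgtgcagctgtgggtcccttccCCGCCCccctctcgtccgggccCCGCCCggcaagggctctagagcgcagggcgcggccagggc
Col15a1: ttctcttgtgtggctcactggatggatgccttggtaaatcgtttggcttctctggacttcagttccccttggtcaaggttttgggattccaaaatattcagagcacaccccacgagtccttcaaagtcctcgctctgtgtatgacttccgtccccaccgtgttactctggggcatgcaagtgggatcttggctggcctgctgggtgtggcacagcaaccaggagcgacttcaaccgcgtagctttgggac

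The sequence before Col3a1 was AT-rich, with 35.2% G and C, and held a TATAAA match and no CpG. Those of the collagen V genes were GC-rich, with 76.4% G and C and 28 CpG for Col5a1 and 62.8% and 17 for Col5a3. Both held 2 matches of GGGCGG, and Col5a3 also held 1 of CCAAT. None of these motifs was found in the 250 bases before Col15a1. RefSeq windows (250 bases before and 50 after a start) were at hand for 35 of the 44 members, in 38 windows, and the other 9 members had none. GGGCGG occurred in 60.5% of the collagen windows and 35.7% of all 32851 windows, CCAAT in 34.2% and 37.4%, and TATAAA in 13.2% and 13.6%. These matches describe letters only, and binding was not measured.

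Among the fibrillar genes, 7 of the 8 compared were below 0, where 48.1% of all genes were, and their median change was -0.51. Col3a1 (ENSMUSG00000026043, chromosome 1, 45311538 to 45349706 on the plus strand, GRCm38), the chain of collagen III, had the highest FPKM of the family in both libraries. Its FPKM was 1264 and 698.8, 1.81-fold lower with a change of -0.85, and its rank among all genes moved from 48 to 150. It made up 34.9% of all collagen FPKM in WT and 30.5% in Postn-DTR. The collagen I chains differed less. Col1a1 had an FPKM of 422.4 and 313.0 (change -0.43), and Col1a2 had 406.7 and 356.7 (change -0.19), which lies inside the middle 50% of all genes.

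The collagen V chains, which join collagen I fibrils and limit their width, did not share the size of their change. Col5a3 (ENSMUSG00000004098, chromosome 9, 20770050 to 20815067 on the minus strand) was at 34.5 and 7.46. This was 4.62-fold lower with a change of -2.07, the largest of the family, and 0.64% of all genes compared had a more negative change. Col5a1 had an FPKM of 61.6 and 40.3 (change -0.60) and Col5a2 had 61.5 and 50.8 (change -0.27). The only collagen V gene past 2-fold was therefore the least abundant of the 3. Col27a1, a fibrillar chain known from cartilage, was at 4.67 and 2.29 (change -0.78, or 2.04-fold on the FPKM ratio). Col11a2, a chain of collagen XI, was the fibrillar gene above 0, with 0.858 and 1.16 (change 0.22), just over the expression minimum. Defining cartilage and bone markers were near 0, with a sum of 0.989 and 0.921.

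The basement membrane genes had a median change of -0.54, with 3 of 4 below 0 and none past 2-fold. Among all genes, 48.1% were below 0, 3.12% at least 2-fold lower and 3.88% at least 2-fold higher, so counts over 4 genes say little about the class. Col4a1 and Col4a2 encode the common collagen IV trimer. Col4a1 (ENSMUSG00000031502, chromosome 8, 11198423 to 11312826 on the minus strand) had 273.7 and 168.6 (change -0.70). Col4a2 (ENSMUSG00000031503, 11312805 to 11449287 on the plus strand) had 177.2 and 111.9 (change -0.66). These neighbours start head to head and their annotated spans share 22 bases, chr8:11312805-11312826, shown on the plus strand because it is where both genes begin.
Col4a1 and Col4a2: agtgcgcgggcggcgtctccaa

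The ratio of Col4a1 to Col4a2 was 1.54 in WT and 1.51 in Postn-DTR, so both chains were lower to a similar extent. Col4a5 and Col4a6, which encode chains of another collagen IV trimer, also start head to head, 1308 bases apart on chromosome X, and their values went apart. Col4a5 had an FPKM of 15.6 and 11.5 (change -0.41), and Col4a6 had 8.17 and 8.61. The change of Col4a6 was 0.07 and had no stable direction, with -0.0018 with upper quartile scaling and -0.23 with equal totals. The ratio of Col4a5 to Col4a6 was 1.91 in WT and 1.33 in Postn-DTR. Col4a3 and Col4a4, the remaining chains, known from the kidney glomerulus, were under the minimum (0.439 and 0.163 for Col4a3, 0.733 and 0.480 for Col4a4).

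All 5 beaded-filament genes compared were below 0, where 48.1% of all genes were, with a median change of -0.80. Col6a1 and Col6a2, which pair with a longer chain in collagen VI, had an FPKM of 246.1 and 167.2 (change -0.56) and of 222.9 and 127.2 (change -0.80). Col6a3 (ENSMUSG00000048126, chromosome 1, 90765923 to 90843971 on the minus strand) encodes that longer chain, whose cleaved end is known as endotrophin. Its FPKM was 46.9 and 20.9, 2.24-fold lower with a change of -1.13. The chains of this trimer thus differed in their change, and Col6a3 per Col6a1 was 0.190 in WT and 0.125 in Postn-DTR.

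Col6a4, Col6a5 and Col6a6 encode chains that can take its place and lie next to each other on chromosome 9, on the same strand. Col6a5 had an FPKM of 44.5 and 27.1 (change -0.70). Col6a6 (105687809 to 105828160 on the minus strand) had 3.30 and 0.836, or 3.94-fold lower (change -1.23), and rested on about 664 and 174 estimated reads. Col6a4 was under the minimum, with 0.528 and 0.201. The 3 neighbours were thus all lower in the Postn-DTR library, though they differed in level.

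The FACIT genes had the smallest median change, -0.25, and none was past 2-fold (3.12% of all genes were lower and 3.88% higher by that much). Col16a1 had 26.1 and 17.0 (change -0.59). Col14a1 had 24.4 and 17.7 (change -0.44). The others compared were low and close in both libraries. Col12a1, a chain found in dense connective tissue, had 2.18 and 2.21, and its change of 0.01 turned to -0.0071 with centring, -0.041 with upper quartile scaling and -0.21 with equal totals. Col20a1 had 1.47 and 1.37 (change -0.06).

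Of the remaining classes, the multiplexins, basement membrane collagens with interrupted helices, were the most abundant, with 253.4 and 128.3 in all. Col15a1 (ENSMUSG00000028339, chromosome 4, 47208161 to 47313167 on the plus strand), which links basement membranes to fibrils, was at 152.8 and 57.7. It was 2.65-fold lower with a change of -1.39, the second most negative of the family. Col18a1, whose cleaved end is endostatin, had 100.5 and 70.6 (change -0.50). The transmembrane collagen gene Col13a1 had 5.20 and 2.096, and its change of -1.002 lay at the threshold. The network collagen VIII genes were not lower together with the others. Col8a1 had 1.23 and 2.24 (change 0.54), the highest change of the family, and Col8a2 had 2.37 and 2.23 (change -0.06).

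**Figure D2:**
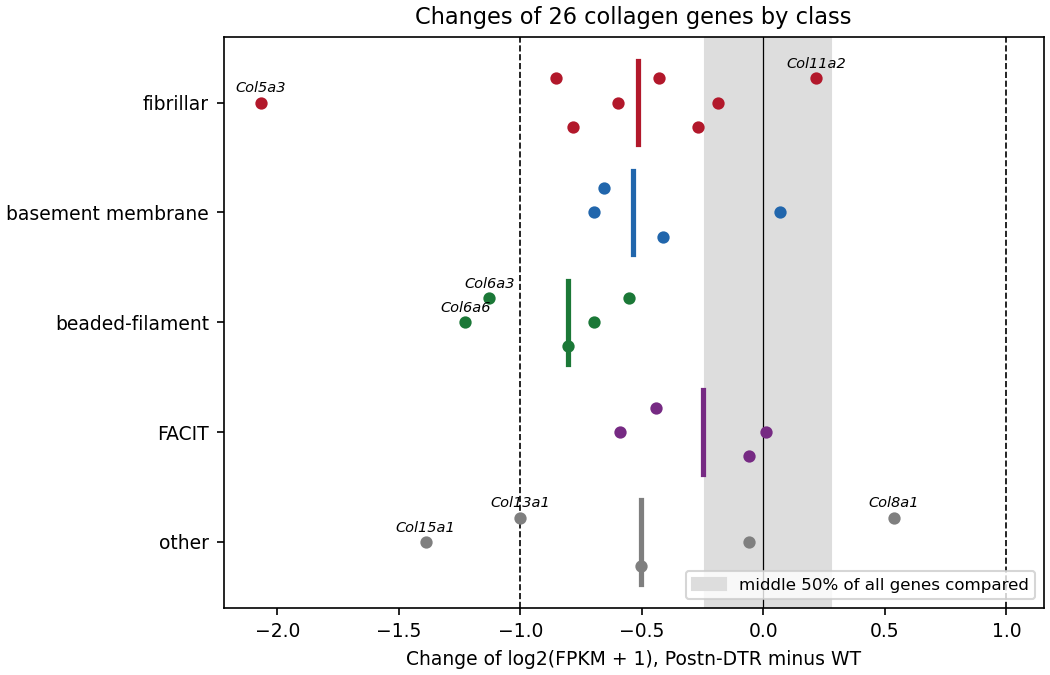
Change in log2(FPKM + 1) from WT to Postn-DTR of each collagen gene compared, by class, with a coloured bar at the class median, dashed lines at 2-fold and a grey band over the middle 50% of all genes. The class medians lie between -0.80 (beaded-filament) and -0.25 (FACIT), and Col5a3 lies farthest to the left at -2.07.

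The other 18 members were under the expression minimum, and their highest FPKM was 1.12. Of these, 13 were lower and 4 higher in Postn-DTR, and Col9a1 was listed at 0 in both. The matching share over all genes under the minimum was not computed, so these counts are no result about the family. Some of these members rest on few reads, such as Col9a2 with about 1.1 and 4.3 estimated reads. The nearest to the minimum were Col23a1, a transmembrane collagen (1.12 and 0.592), and Col7a1, the chain of the fibrils that anchor epithelia (1.05 and 0.517). Col25a1 and Col10a1 were listed at 0 in Postn-DTR and Col2a1, the main chain of cartilage, at 0 in WT. Col11a1, a chain of collagen XI, had 0.00607 and 0.293, about 1 and 53 estimated reads. The ratio was 48.3, the highest of the members with a value above 0 in WT. An exact (Clopper-Pearson) 95% interval, computed for this gene only from rounded estimated reads, was 8.81 to 2062. It covers counting error only and not differences between mice, so it is no test of genotype.

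The make-up of the collagen transcripts differed less than their amount. Fibrillar genes held 62.4% of collagen FPKM in WT and 64.2% in Postn-DTR, beaded-filament genes 15.6% and 15.0%, and basement membrane genes 13.2% and 13.1%. FACIT genes held 1.52% and 1.70%, and the others 7.34% and 5.97%. Shares within a library do not depend on scaling between libraries, but they depended on Col3a1. Without it, the fibrillar share was 42.2% in WT and 48.5% in Postn-DTR, and the beaded-filament share 23.98% and 21.6%.

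Ratios between chains, which also do not depend on scaling, set out which chains moved apart. Col1a1 per Col1a2 was 1.04 in WT and 0.877 in Postn-DTR, while the collagen I trimer holds more of the first chain than of the second. Col3a1 per Col1a1 was 2.99 and 2.23, and Col5a1 per Col5a2 was 1.002 and 0.793. The largest difference was in Col5a3 per Col5a1, at 0.560 and 0.185, a pair chosen after the values were seen, as were Col3a1 per Col1a1 and Col4a5 per Col4a6. Col6a1 per Col6a2 was 1.10 and 1.31, and Col8a1 per Col8a2 was 0.520 and 1.004, on low levels.

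**Figure D3:**
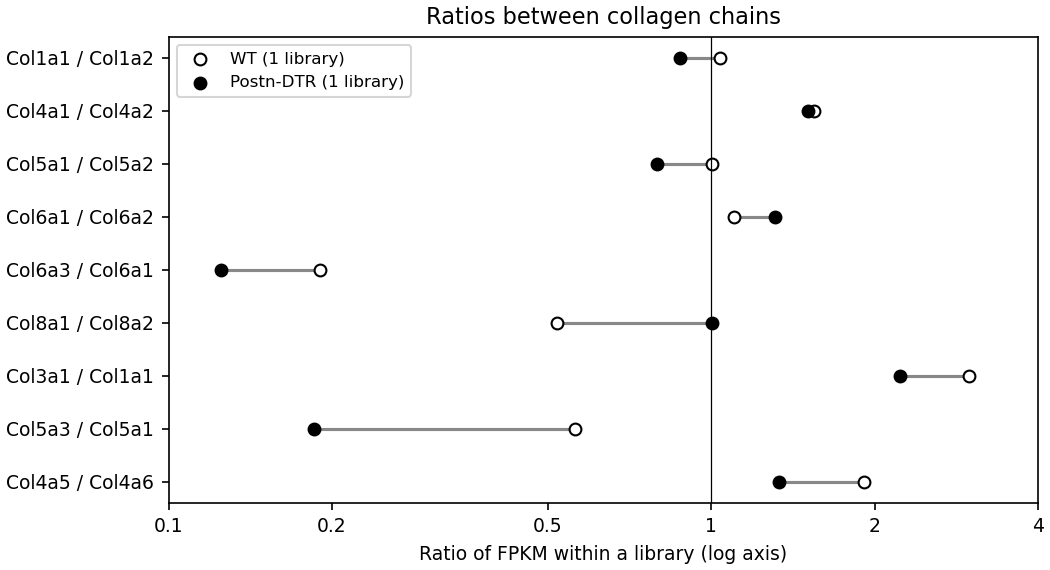
FPKM of the first chain divided by that of the second within the WT library (open circle) and the Postn-DTR library (filled circle), on a log axis with a line at 1. Col4a1 / Col4a2 lies nearly still (1.54 and 1.51), and Col5a3 / Col5a1 shows the widest gap (0.560 and 0.185).

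Members of a class shared protein features. The symbol rule had not used these, but the classes themselves rest on such structures, so the features are no independent support for the grouping. From the annotated coding sequences, the fibrillar chains Col1a1, Col1a2, Col2a1, Col3a1, Col5a1, Col5a2, Col5a3, Col11a1 and Col11a2 each had a longest unbroken run of 337 to 344 Gly-X-Y triplets, and Col24a1 and Col27a1 one of 216 and 217. Col5a3 (337 triplets, 1739 residues) and Col5a1 (338 triplets, 1838 residues) were alike in this, while their changes were -2.07 and -0.60. Collagen IV chains held 22 to 27 runs of at least 6 triplets, none over 66, and Col15a1 and Col18a1 held runs of at most 30. Col6a1 and Col6a2 both had 87 triplets in their longest run, and Col6a3, with 3284 residues, had 45. Over the 26 genes compared, Spearman's rho between protein length and change was -0.20, and between level in WT and change -0.40. Both are descriptions across genes of the same 2 libraries, and the level in WT enters the change itself.

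Genes of the wider collagen pathway were compared in 6 lists. Of all genes compared, 48.1% were below 0, 3.12% were at least 2-fold lower and 3.88% at least 2-fold higher. These shares stand beside the counts of all 6 lists, which are short. Of 28 genes for processing and crosslinking, 15 were below 0 and 13 above, with a median change of -0.17 that was 0.058 where mean FPKM had to reach 10 and -0.42 with equal totals. At least 2-fold lower were 3. Serpinh1, the collagen-specific chaperone HSP47, was at 435.7 and 185.7. Pcolce, which enhances removal of the procollagen C-propeptide, was at 232.4 and 98.7, and P3h2, a prolyl 3-hydroxylase, at 5.41 and 2.19. Lox, which starts crosslinking, was the 1 gene at least 2-fold higher, at 20.7 and 53.9. Sparc, a collagen-binding matrix protein, had 1455 and 897.9, and P4hb, a subunit of prolyl 4-hydroxylase and a general disulfide isomerase, had 290.2 and 389.0.

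Of 9 collagen-binding small leucine-rich proteoglycans, 5 were below 0, with a median of -0.28. Fmod (66.4 and 31.8), Ogn (48.3 and 23.2) and Aspn (7.82 and 2.14) were at least 2-fold lower. The abundant Dcn, which encodes decorin, had 1875 and 2152 and Bgn, which encodes biglycan, had 466.2 and 522.2. Their changes of 0.20 and 0.16 turned to -0.14 and -0.17 at equal totals. Basement membrane partners of collagen IV followed the collagens more closely, with 11 of 14 below 0 and a median of -0.52. Nid1, the nidogen that bridges laminin and collagen IV, had 94.3 and 65.0, and Hspg2, which encodes perlecan, had 78.4 and 50.3. The laminin chain gene Lamc3 was the 1 gene at least 2-fold higher (14.5 and 30.6), with a change of 1.03 that was 0.95 with upper quartile scaling and 0.70 with equal totals.

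Collagen receptors had a median change of 0.06 over 9 genes, which turned to -0.018 with upper quartile scaling, -0.27 with equal totals and -0.15 without an expression minimum. Itga11, a collagen-binding integrin chain of fibroblasts, was at least 2-fold lower, at 2.42 and 0.675. Itgb1, its partner chain, had 141.6 and 178.0, and the receptors Adgrg1 and Ddr1 had 35.2 and 44.2, and 35.8 and 37.3. Degrading enzymes and their inhibitors had a median of 0.33 over 11 genes, which was -0.0035 at equal totals. Timp1, an inhibitor of matrix metalloproteinases, was at 10.5 and 178.7. Mmp8, the neutrophil collagenase, was at 1.32 and 6.82, while Timp2 (339.8 and 346.1) and Mmp14 (78.2 and 98.6) were within 2-fold.

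The TGF-beta and fibrosis genes, many of which rise when fibroblasts are activated, were compared last. Of 16 genes, 13 were above 0, with a median of 0.29 that was -0.021 at equal totals. Thbs1, an activator of TGF-beta, was at 21.8 and 189.6. Ctgf, a matricellular target of TGF-beta, was at 18.2 and 88.2. Both were at least 2-fold higher under each of the 3 scalings. Fn1, which encodes fibronectin, had 459.1 and 836.8, and Acta2, the smooth muscle actin of myofibroblasts, 94.6 and 108.9.

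**Figure D4:**
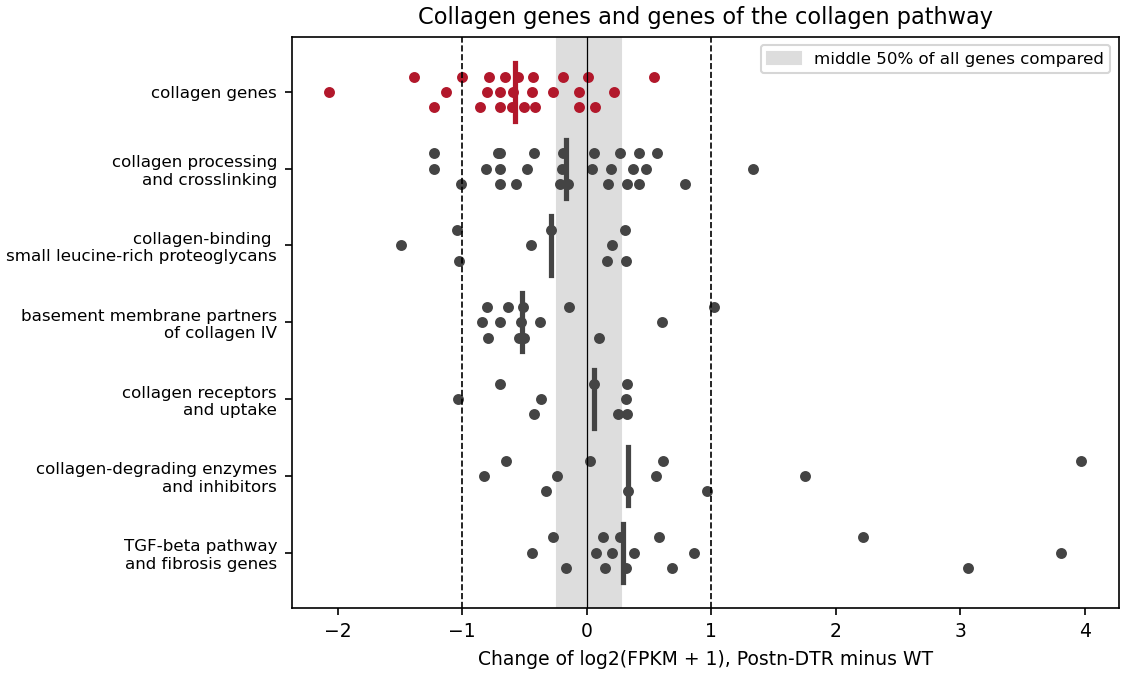
Change in log2(FPKM + 1) from WT to Postn-DTR of the collagen genes (red) and of genes of 6 lists of the collagen pathway (grey), with a bar at each median, dashed lines at 2-fold and a grey band over the middle 50% of all genes. The median is -0.57 for the collagen genes and -0.52 for basement membrane partners, and 0.29 for TGF-beta and fibrosis genes (-0.021 with equal totals).

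Markers of several cell types were set beside these results, and their directions differed. Their counts below 0 stand beside 48.1% of all genes compared, and several of these short lists lie near that share. Of the FRC markers of the study, which include Postn, 6 of 8 were below 0, with a sum of 712.8 and 328.3. Postn itself carries the receptor insertion in Postn-DTR mice, and what this does to its value was not tested. Clec3b (353.9 and 101.8) is the largest part of that sum. Aldh1a2 had 85.5 and 63.3, while Eng (75.2 and 76.2) and Vcam1 (30.3 and 31.9) were not lower. Of 6 mural markers, 5 were below 0, with a sum of 287.5 and 221.8, and the pericyte genes Rgs5 (30.6 and 2.56) and Notch3 (21.3 and 3.53) were much lower. Of 7 fibroblast markers, 3 were below 0 with a sum of 2306 and 2389, in which Dcn is the largest part. Within this list Dpt (236.9 and 67.3) and Pdgfrb (41.3 and 17.3) were lower, and Pdgfra was at 26.0 and 29.2. Endothelial markers summed to 234.7 and 233.7 with 3 of 6 below 0, and mesothelial markers to 479.6 and 489.6 with 2 of 6 below 0. The mesothelial sum hides opposite differences, with Lrrn4 at 62.7 and 29.2 and Msln at 37.2 and 67.9. Of 5 adipocyte markers 4 were below 0. All 5 macrophage markers were above 0, with a sum of 2819 and 4541, in which Lyz2 (2459 and 3563) is the largest part. The differences were larger for Cd68 (113.8 and 369.4), Itgam (46.8 and 251.9) and Adgre1 (41.1 and 137.6) and smaller for Csf1r (158.3 and 219.1). All 14 acinar markers compared were below 0, and the sums of Schwann cell markers (18.1 and 19.6) and skeletal muscle markers (2.46 and 2.28) were low in both. The part of these cells in the collagen differences was not tested.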

How the data were processed

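Per the labels, RNA of whole omentum went through the TruSeq stranded mRNA preparation. The authors deposited FPKM, 1 value per gene symbol and library. The submitters' processing notes name TopHat2 2.1.1, Bowtie2 2.2.8, SAMtools 0.1.18, Cuffdiff 2.2.1 and mm10 without giving their roles, and the annotation was not given in the sources used here. Positions, lengths and coding sequences came from GENCODE M21 (GRCm38), which matched all 44 members, and promoters from RefSeq.

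Changes used a pseudocount of 1 and a minimum mean FPKM of 1 (Python 3.11.15, numpy 2.4.6, pandas 2.3.3, scipy 1.17.1, Biopython 1.88, matplotlib 3.10.9), with code tested on simulated data. Depth was estimated from 723 genes low in both libraries, of which 174 had a ratio of 0.967, the worth of 1 read. This gave about 23500000 and 24300000 fragments, and 72.1% of 859 low values lay within 0.05 of whole reads. Read numbers are therefore approximate. All members were accounted for. Of each pathway list, the 3 genes with the highest mean FPKM and those past 2-fold were named, except 1 gene that is not reported here. Marker genes were named after their values were seen. Members and lists were chosen with earlier results of these data known.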

Additional observations from a re-analysis of the deposited data

How the results depend on the processing

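No paired analysis was possible because there was 1 library per genotype, and for the same reason no replicate could be left out. Each of the 22 collagen genes below 0 stayed below 0 under all settings that gave it a value. This was fixed in advance, because the pseudocount and the expression minimum cannot change a sign and the scalings moved changes down. Every class median stayed negative, which only the expression minimum could have altered. The number of collagen genes lower (5) was 3 with a pseudocount of 5, 3 with a mean FPKM of at least 10, 10 with acinar genes removed and equal totals, 13 at 1.5-fold, 1 at 3-fold and 6 on the FPKM ratio without a pseudocount, a setting chosen after seeing the data. For all genes, the number lower (410) was 643 with a pseudocount of 0.1, 168 with 5, 173 with a mean FPKM of at least 10, 739 with equal totals, 1160 and 153 at thresholds of 1.5-fold and 3-fold, and 682 on that ratio. The number higher (509) was 287 with a pseudocount of 5, 303 with a mean FPKM of at least 10, 299 with equal totals, and 1294 and 199 at those thresholds.

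Equal totals moved the median of all genes by -0.29. The medians were then -0.90 for all collagens, -0.85 for fibrillar, -0.86 for basement membrane, -1.14 for beaded-filament, -0.50 for FACIT and -0.84 for other collagens, and -0.42 for processing and crosslinking, -0.62 for proteoglycans, -0.85 for basement membrane partners, -0.27 for receptors, -0.0035 for degrading enzymes and inhibitors and -0.021 for TGF-beta and fibrosis genes. Without an expression minimum the median was -0.31 for all, -0.27 for fibrillar, -0.039 for FACIT and -0.11 for other collagens, -0.035 for proteoglycans and -0.15 for receptors, and where mean FPKM had to reach 10 it was -0.52 for FACIT, -0.95 for other collagens, 0.058 for processing and crosslinking and 0.18 for degrading enzymes and inhibitors. Without Col3a1, the share of collagen FPKM in Postn-DTR minus WT was 6.31 points for fibrillar, -1.31 for basement membrane, -2.42 for beaded-filament and -2.69 for other collagens, against 1.81, -0.013, -0.61 and -1.37 with it. The log2 ratio of Col8a1 to Col8a2 differed by 0.95, and by 0.60 on FPKM + 1. Beyond shifts of scale, the cause was not tested. Changes of about the size of the shift in a single gene cannot be told apart from scaling.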
